A study of Mus musculus with 9 samples.

Results

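Transcript levels of 10 glycolysis enzymes were examined in lymphomas of Bcl6 and Smc3/Bcl6 mice. The genes were Hk1, Hk2, Gpi1, Pfkl, Pfkp, Aldoa, Gapdh, Pgk1, Pkm and Ldha, taken by symbol from a raw count table of 41128 genes, and all 10 were found and passed edgeR's filter on low counts. RNA was sequenced from 9 tumors, 1 library each: 3 from Bcl6 mice (IµBcl6, Smc3 wt/wt, Cγ1 wt/cre) and 6 from Smc3/Bcl6 mice (IµBcl6, Smc3 wt/-, Cγ1 wt/cre). All 9 tumors thus shared the IµBcl6 allele, which keeps the germinal center (GC) regulator Bcl6 expressed in B cells, and the Cre, which is driven from the Cγ1 locus and acts in B cells entering the GC reaction. The genotypes differed in 1 copy of Smc3, a core subunit of the cohesin ring, and the deletion itself was not checked in these libraries. The paper reports reduced Smc3 expression in Smc3/Bcl6 tumors, with RT-qPCR among its evidence. Ages were not given in the sources used here, and in the labels a mesenteric origin is stated for replicate 1 of either genotype, with just lymph node for the remainder. Since these were bulk samples, fewer cells of a type and less RNA per cell cannot be told apart.

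Glycolysis converts glucose to pyruvate in the cytosol. Hexokinases trap glucose in the cell as glucose-6-phosphate, phosphofructokinase makes the committing step, aldolase splits the sugar, and the later enzymes recover ATP and NADH before lactate dehydrogenase regenerates NAD+ by reducing pyruvate to lactate. Proliferating lymphocytes are known for a high glycolytic rate even with oxygen present, and the hypoxia-inducible factors and Myc are known activators of many genes of the pathway.

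The total count per library lay between 10156728 and 17774577. The targeted gene Smc3 had 126, 99.5 and 88.1 CPM (counts scaled to library size, with TMM factors) in the 3 Bcl6 tumors, and 27.9 to 111, median 106, in the 6 tumors of Smc3/Bcl6 mice. The lowest value belonged to Smc3/Bcl6 tumor 2, and the other 5 lay within the range of the Bcl6 tumors. Tumor 2 also stood apart in a way that touches these genes. The deviation of its log2 CPM from the mean of the other 8 tumors was correlated with exon length across genes. Spearman's rho was -0.47, against -0.03 to 0.27 in the other 8, so that longer transcripts tended to be low and shorter ones high. The 7 B-cell markers summed to between 2746 and 10397 CPM in the 9 tumors and none of them was at 0.

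Promoters from RefSeq (GRCm38.p6, 300 bases each) were searched for ACGTG on both strands, the core of the site bound by hypoxia-inducible factors, and for CACGTG, an E-box of the kind bound by Myc, which contains the former. ACGTG was found in 8 of the 15 listed promoters of the 10 enzymes and in at least 1 promoter of 7 of them, whereas 19.6% of all 32851 promoters and 21.8% of 27025 genes held it. Overlapping promoters of Aldoa hold the same 1 ACGTG match, which is thus counted more than once among the 8. CACGTG was found in 1 of the 15, a promoter of Ldha, against 7.15% of all promoters. A match describes the letters and not a bound site. The promoters of Ldha (chr7:46845554-46845853, plus strand), Hk2 (chr6:82774405-82774704, minus strand) and Pgk1 (chrX:106186850-106187149, plus strand) are shown, Ldha for its E-boxes and the other 2 because these genes had the lowest levels of the 10 in Smc3/Bcl6 tumor 4 relative to the 7 tumors other than Smc3/Bcl6 tumors 2 and 4. Capitals mark the motif matches on either strand.
Ldha: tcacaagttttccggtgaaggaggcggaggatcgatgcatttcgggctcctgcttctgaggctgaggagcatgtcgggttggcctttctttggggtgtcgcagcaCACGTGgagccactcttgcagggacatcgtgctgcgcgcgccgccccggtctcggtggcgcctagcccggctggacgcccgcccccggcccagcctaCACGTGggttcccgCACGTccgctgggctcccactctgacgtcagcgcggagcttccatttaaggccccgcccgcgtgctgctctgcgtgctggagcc
Hk2: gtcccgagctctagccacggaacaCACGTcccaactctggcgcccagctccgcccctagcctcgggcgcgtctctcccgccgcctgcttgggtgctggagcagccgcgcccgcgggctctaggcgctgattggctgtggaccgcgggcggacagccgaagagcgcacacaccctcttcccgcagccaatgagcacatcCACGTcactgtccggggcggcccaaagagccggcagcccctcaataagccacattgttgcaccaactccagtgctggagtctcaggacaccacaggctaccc
Pgk1: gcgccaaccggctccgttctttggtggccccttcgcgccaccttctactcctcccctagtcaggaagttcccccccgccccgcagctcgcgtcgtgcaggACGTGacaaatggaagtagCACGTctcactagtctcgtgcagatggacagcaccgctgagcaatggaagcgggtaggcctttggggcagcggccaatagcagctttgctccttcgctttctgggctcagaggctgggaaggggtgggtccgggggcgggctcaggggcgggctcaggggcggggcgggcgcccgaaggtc
The Ldha promoter counted 5 ACGTG matches, since each of its 2 CACGTG copies reads the same on both strands, and the Hk2 and Pgk1 promoters held 2 each.

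None of the 10 enzymes passed a test of the genotypes with all 9 tumors, by edgeR or by DESeq2. At a Benjamini-Hochberg adjusted p below 0.05 in edgeR's quasi-likelihood test, 0 of the 10 and 0 of all 14057 genes tested were called, and 79 of all genes (0.562%) had an unadjusted p below 0.05, 0 of them among the 10, each of which had an adjusted p of 1.00 after rounding. At the thresholds of the study, an unadjusted p below 0.1 with an absolute log2 fold change above 0.56, 2.15% of the genes tested were called and again 0 of the 10. DESeq2 called 3.15% of genes at these thresholds and gave 1.49% an unadjusted p below 0.05, with 0 of the 10 in each case. The edgeR fit with a replicate block, which took replicates 1 to 3 of each genotype only, called 2.24% of genes and 0 of the 10. The values of the 2 genotypes overlapped for each of the 10, while 0.484% of the genes tested did not overlap. The fitted log2 fold change (Smc3/Bcl6 over Bcl6) was positive for 5 and negative for 5, from -0.25 for Hk2 to 0.57 for Gapdh, with a median of 0.11 beside 0.06 over all genes tested. As a description, 9 of the 10 varied less among the 3 Bcl6 tumors than the median gene (median SD of log2 CPM 0.15, against 0.35 over all genes), and 8 of the 10 varied more than the median gene among the 6 Smc3/Bcl6 tumors (0.87, against 0.71). Without Smc3/Bcl6 tumors 2 and 4, 7 of the 10 were below the median gene there as well (0.30, against 0.38).

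**Figure D1:**
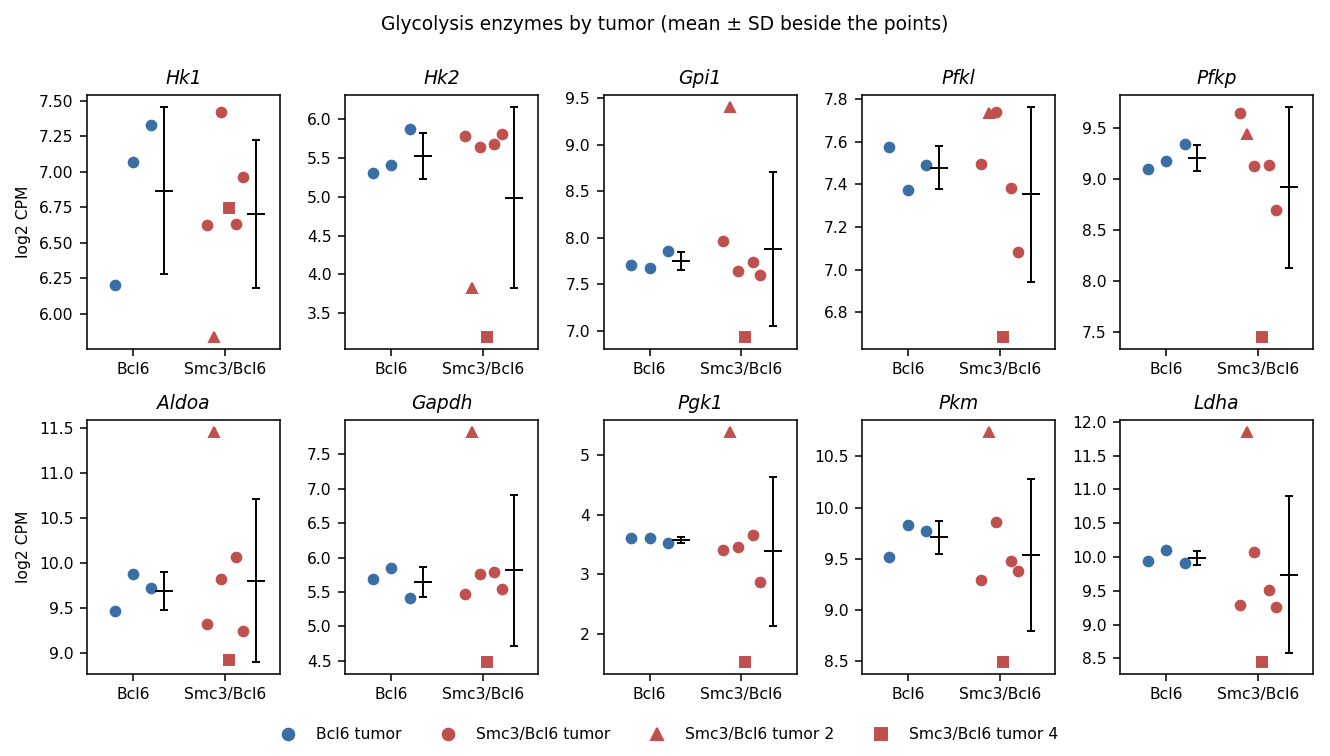
Each panel plots log2 CPM (vertical axis) of 1 enzyme in the 3 Bcl6 and 6 Smc3/Bcl6 tumors, with the mean and SD beside the points. Smc3/Bcl6 tumor 2 (triangle) is highest for 6 of the 10 genes and tumor 4 (square) lowest for 9 of the 10.

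The hexokinases catalyse the entry step. Hk1, the broadly expressed form (ENSMUSG00000037012.13; chromosome 10, 62268855 to 62379908 of GRCm38, minus strand), had 73.6, 135 and 161 CPM in the Bcl6 tumors (1 to 3) against 56.9 to 171 (median 103) in Smc3/Bcl6 tumors. It was the only 1 of the 10 that was not lowest in Smc3/Bcl6 tumor 4, and its lowest value was that of tumor 2. The log2 fold change was -0.16 with a standard error of 0.35. Hk2, the inducible form found in many tumors (ENSMUSG00000000628.5; chromosome 6, 82725025 to 82774454, minus strand), had 39.4, 42.2 and 58.2 CPM in Bcl6 tumors. In Smc3/Bcl6 tumors 1 to 6 it had 55.1, 14.0, 49.7, 8.98, 51.3 and 56.0 CPM. Hk2 thus took 2 kinds of value, with 7 tumors between 39.4 and 58.2 CPM and Smc3/Bcl6 tumors 2 and 4 far under them, and its log2 fold change was -0.25 with a standard error of 0.55.

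Gpi1, Pfkl, Pfkp and Aldoa carry the sugar from glucose-6-phosphate to triose phosphates. Gpi1, the isomerase (ENSMUSG00000036427.4; chromosome 7, 34201330 to 34230336, minus strand), had 209, 204 and 231 CPM in Bcl6 tumors against 122 to 678 (median 206) in Smc3/Bcl6 tumors. Its highest value was that of tumor 2, at 3.34 times the mean of the other 8 tumors, and the remaining Smc3/Bcl6 values surrounded those of the Bcl6 tumors. Pfkl, the liver-type phosphofructokinase subunit (ENSMUSG00000020277.9; chromosome 10, 77986947 to 78010083, minus strand), had 190, 166 and 179 CPM in Bcl6 tumors against 103 to 214 (median 173) in Smc3/Bcl6 tumors. It had the narrowest range of the 10, 1.06 on the log2 scale, and a log2 fold change of -0.08 with a standard error of 0.27. Pfkp, the platelet-type subunit (ENSMUSG00000021196.8; chromosome 13, 6579768 to 6648777, minus strand), had 545, 577 and 649 CPM in Bcl6 tumors. In Smc3/Bcl6 tumors 1 to 6 its values were 801, 696, 558, 174, 562 and 414 CPM, so that tumor 4 had 0.296 of the mean of the 7 tumors other than 2 and 4. Aldoa, the aldolase of muscle and most growing cells (ENSMUSG00000030695.8; chromosome 7, 126795234 to 126800751, minus strand), had 707, 943 and 843 CPM in Bcl6 tumors against 484 to 2819 (median 769) in Smc3/Bcl6 tumors. Tumor 2 held the highest Aldoa level, and the log2 fold change was 0.39 with a standard error of 0.55.

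Gapdh, Pgk1 and Pkm belong to the energy-yielding part of the pathway. Gapdh (ENSMUSG00000057666.13; chromosome 6, 125161715 to 125166467, minus strand), which makes the first NADH, had 51.4, 57.4 and 42.4 CPM in Bcl6 tumors. In Smc3/Bcl6 tumors 1 to 6 it had 44.1, 227, 54.4, 22.2, 55.4 and 46.6 CPM. Tumor 2 was 4.86 times the mean of the other 8 for Gapdh, the largest such ratio of the 10, and the fold change of 0.57 on the log2 scale had a standard error of 0.65. Pgk1, which makes the first ATP (ENSMUSG00000062070.7; chromosome X, 106187100 to 106203699, plus strand), had 136, 222 and 120 counts in Bcl6 tumors 1 to 3, which came to 11.8 ± 0.376 CPM (SD, n = 3), the tightest group of the 10 with an SD of 0.05 on the log2 scale. In Smc3/Bcl6 tumors 1 to 6 the values of Pgk1 were 10.4, 41.8, 10.8, 2.73, 12.5 and 7.20 CPM, the most spread of the 10, and the lowest rested on 41 counts. Pkm, the pyruvate kinase of the last ATP-forming step (ENSMUSG00000032294.11; chromosome 9, 59656368 to 59679375, plus strand), had 736, 912 and 874 CPM in Bcl6 tumors against 360 to 1708 (median 690) in Smc3/Bcl6 tumors. The fitted log2 fold change of Pkm was -0.01 with a standard error of 0.43, and its 2 splice forms were not separated by counts per gene.

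The levels of some of these genes depend on how reads with several matches were counted. In the principal GENCODE transcript, 82.5% of 50-base windows of Gapdh and 68.0% of those of Pgk1 occurred in transcripts of other genes too. The share was 34.4% for Pkm, 25.3% for Gpi1, 17.1% for Ldha and for Pfkp, 13.9% for Aldoa, 0.0543% for Pfkl and 0 for Hk1 and Hk2. The levels of Gapdh and Pgk1 are therefore uncertain, since reads shared with other genes could not be assigned from the table.

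Ldha (ENSMUSG00000063229.9; chromosome 7, 46841475 to 46855627, plus strand) forms the subunit of lactate dehydrogenase that favours lactate production. It had 984, 1098 and 960 CPM in Bcl6 tumors. In Smc3/Bcl6 tumors 1 to 6 it had 629, 3698, 1083, 348, 729 and 612 CPM, so that 4 of the 6 lay under all 3 Bcl6 tumors, tumor 3 lay among them and tumor 2 far above. The log2 fold change of Ldha was 0.22 with a standard error of 0.68 and a 95% interval from -1.29 to 1.74 in edgeR. The mean of its log2 CPM was by contrast 0.24 lower in Smc3/Bcl6 tumors (log2 difference -0.24), and the sign differed between these 2 summaries for Pgk1 as well (fitted 0.27, difference of log2 means -0.19). In exact two-sided permutation tests of log2 CPM over the 84 splits of the tumors, where the smallest p possible was 0.0119, the p of the 10 genes ran from 0.571 for Hk2 to 0.881 for Aldoa.

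Leaving out Smc3/Bcl6 tumor 2 turned the sign for 5 of the 10 enzymes. Without it, all 10 log2 fold changes were negative, from -0.03 for Hk1 to -0.56 for Ldha, with a median of -0.16 beside 0.03 over the 13942 genes tested. The groups still overlapped for each of the 10, when 1.42% of genes did not overlap, and 0 of the 10 were called at the thresholds of the study, which 3.82% of genes passed. At an unadjusted p below 0.05, 1.82% of genes passed and again 0 of the 10. Ldha came nearest, with a log2 fold change of -0.56, a standard error of 0.32 and an unadjusted p of 0.118 (Benjamini-Hochberg adjusted p = 0.985, edgeR). Pgk1 had -0.42 and Pkm -0.34, with standard errors of 0.44 and 0.29. The exact permutation p of Ldha on 8 tumors was 0.107 over 56 splits, where 0.0179 was the smallest possible. Without tumors 2 and 4, a choice made after their levels were seen, 4 of the 10 were positive and 6 negative with a median of -0.02, with the lowest value for Ldha, -0.39 with a standard error of 0.24, and 0 were called when 3.12% of genes were. Limma with a quality weight per tumor, which gave tumor 2 a weight of 0.125, called 1 of the 10, Ldha with a log2 fold change of -0.60 and an unadjusted p of 0.0596 (Benjamini-Hochberg adjusted p = 0.563, limma), beside 11.7% of all genes called and 7.13% called lower.

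**Figure D2:**
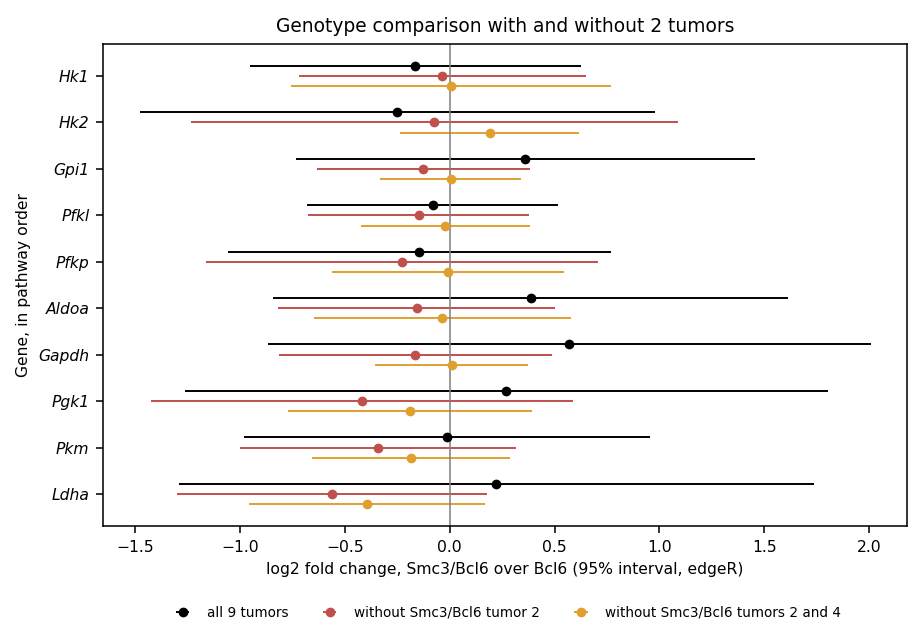
Points and bars give the log2 fold change of Smc3/Bcl6 over Bcl6 (horizontal axis) and its 95% interval from edgeR for the 10 enzymes in pathway order. With all 9 tumors 5 are positive, without Smc3/Bcl6 tumor 2 all 10 are negative, and without tumors 2 and 4 the points lie from -0.39 to 0.19, while every interval includes 0.

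The mean of log2 CPM over the 10 enzymes was 7.54 ± 0.12 (SD, n = 3) in Bcl6 and 7.41 ± 0.67 (SD, n = 6) in Smc3/Bcl6 tumors. The difference of -0.13 was opposite in sign to the median of the fitted fold changes given above and smaller than the spread between tumors of a genotype (0.57). By tumor this mean was 7.41, 7.60 and 7.62 in Bcl6 tumors 1 to 3 and 7.43, 8.35, 7.65, 6.28, 7.51 and 7.25 in Smc3/Bcl6 tumors 1 to 6. Both the highest and the lowest of the 9 tumors were therefore Smc3/Bcl6 tumors, and the difference was -0.32 without tumor 2 and 0.0947 without tumor 4. Replicates of the same number differed by 0.02, 0.75 and 0.03 (Smc3/Bcl6 minus Bcl6, numbers 1 to 3).

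Tumor 2 had the highest level of 6 of the 10, namely Gpi1, Aldoa, Gapdh, Pgk1, Pkm and Ldha, at 2.35 to 4.86 times the mean of the other 8 tumors. It was second highest for Pfkl and Pfkp, second lowest for Hk2 and lowest for Hk1. Among all genes tested it was highest for 29.0% and lowest for 31.1%. Length split the 10 in nearly the same way. The 6 enzymes have exon lengths (the union of all annotated exons) from 2244 to 6452 bases, Hk1 and Hk2 have 8532 and 5969, and Pfkl and Pfkp have 6675 and 13401. Only Hk2 was out of order, under the 6452 of Gpi1. The principal transcripts of the 6 have 1420 to 2884 bases. Those of Hk1, Hk2, Pfkl and Pfkp are all longer, at 3851, 5513, 3730 and 4145. The part of length in the values of tumor 2 was not tested. After each tumor's log2 CPM had been corrected for its trend with exon length and GC content, the deviation of tumor 2 from the mean of the other 8 changed from 2.28 to 2.00 for Ldha, from 2.33 to 2.31 for Gapdh, from 1.77 to 2.26 for Gpi1 and from 2.19 to 1.54 for Pgk1. The same correction took Hk1 from -1.04 to -0.19 and Hk2 from -1.52 to -1.09. Pfkl went from 0.38 to 0.98 and Pfkp from 0.49 to 1.95, so that the deviation was positive for 8 of the 10 and negative for the hexokinases before and after correction. Whether RNA quality had a part in the values of tumor 2 was not tested.

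Tumor 4 had the lowest level of 9 of the 10, when it was lowest for 20.8% of all genes tested. Relative to the mean of the 7 tumors other than 2 and 4, it had 0.179 of the Hk2 level, 0.251 of Pgk1, 0.296 of Pfkp, 0.400 of Ldha, 0.441 of Gapdh and 0.462 of Pkm, but 0.869 of Hk1. Markers of other cells moved with this tumor. The 6 erythroid markers, hemoglobin genes among them, were all highest in tumor 4 and summed to 12511 CPM there, against 43.2 to 4659 in the other 8. The 7 B-cell markers were also highest in sum, at 10397 CPM against 2746 to 8626, with 4 of the 7 highest in tumor 4. T-cell markers summed to 189 CPM, within the 82.8 to 2330 of the others. The 6 stromal markers summed to 329.6 CPM in tumor 4, against 19.0 to 172 in the other 8, with 2 of the 6 highest in tumor 4. Its sums of plasma-cell, neutrophil and macrophage markers (3370, 679 and 2200 CPM) lay within the range of the others. Of the 22 proliferation genes, 17 were lowest in tumor 4. The part of these cells in the low enzyme levels was not tested.

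**Figure D3:**
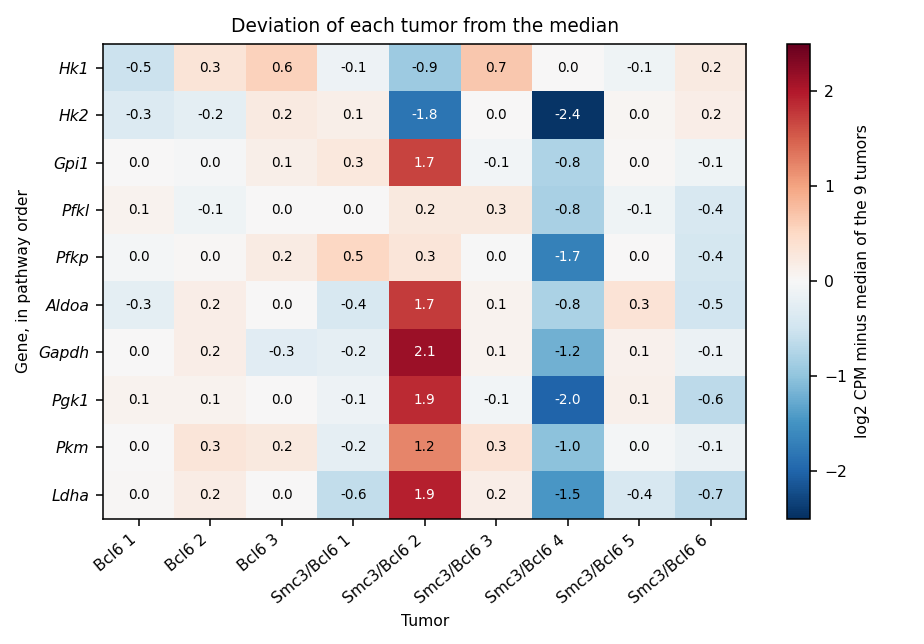
Colors and numbers give log2 CPM minus the median of the 9 tumors for each enzyme (rows, in pathway order) in each tumor (columns). Smc3/Bcl6 tumor 2 is above the median for 8 of the 10 and below it for Hk1 and Hk2, and Smc3/Bcl6 tumor 4 has the lowest value for every enzyme but Hk1.

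The 10 enzymes varied together in most pairs, and the degree changed without these same 2 tumors. Over the 45 pairs of enzymes, Pearson's r of log2 CPM across the 9 tumors had a median of 0.68 and ran from -0.59 to 0.97, with 33 pairs positive. Without tumor 2 all 45 pairs were positive with a median of 0.80, and without tumors 2 and 4 the median was 0.30 and 29 pairs were positive. These are descriptions over tumors that share libraries and depth. The genes outside the 10 whose log2 CPM followed the mean of the enzymes most closely over 9 tumors were Gm17586 (r 0.98), D16Ertd472e (0.97), Cep19 (0.97), Atp6v1d (0.97) and Bcas1 (0.97). Each of these 5 was highest in tumor 2 and lowest in tumor 4.

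Levels could be compared between enzymes only per length, as CPM per kilobase of the principal transcript. The median over the 9 tumors was 558 for Aldoa, 544 for Ldha, 302 for Pkm, 136 for Pfkp, 72.4 for Gpi1, 48.1 for Pfkl, 36.2 for Gapdh, 27.8 for Hk1, 9.01 for Hk2 and 6.21 for Pgk1. Aldoa and Ldha, the next neighbors at the top, ran from 321 to 1865 and from 197 to 2094 CPM per kilobase. Their ranges overlapped, and which of the 2 was higher changed from tumor to tumor. The ranges of Hk2 (1.63 to 10.6) and Pgk1 (1.5 to 22.9) at the bottom overlapped too. Within tumors, Hk2 was above Pgk1 in all but Smc3/Bcl6 tumor 2, where Hk2 had 2.53 and Pgk1 22.9. The order depended in part on the length used. Per kilobase of all annotated exons the median was 290.2 for Ldha and 289 for Aldoa, 41.9 for Pfkp, 12.6 for Hk1, 12.4 for Gapdh and 8.32 for Hk2, so that Ldha and Aldoa changed places, as did Hk1 and Gapdh. The places of Gapdh and Pgk1 depend on the shared windows described above.

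A single isoenzyme predominated at the aldolase and lactate dehydrogenase steps. Per kilobase, Aldoa made up 98.0% to 99.4% of aldolase transcripts beside Aldoc, and Ldha at least 96.9% of lactate dehydrogenase beside Ldhb. Pfkp gave a median of 74.2% of phosphofructokinase (58.0% to 79.5%), Pfkl 25.2% and the muscle form Pfkm 0.830%. Hk1 gave a median of 56.3% of hexokinase (41.3% to 77.5%), Hk2 12.3% (4.54% to 25.6%) and Hk3, the hexokinase of myeloid cells, 31.3% (8.57% to 48.7%). Per kilobase of all annotated exons, an alternative chosen after seeing the data, the medians were 39.6% for Hk1, 17.7% for Hk2 and 42.7% for Hk3, and 61.1% for Pfkp and 37.6% for Pfkl, so that the first place among the hexokinases passed to Hk3. No share passed a comparison of the genotypes in exact two-sided permutation tests (the smallest p was 0.429, and the Benjamini-Hochberg adjusted p over 13 shares was 0.952). The Hk1 share, for example, was 53.6% ± 11.2 (SD, n = 3) in Bcl6 and 58.0% ± 14.8 (SD, n = 6) in Smc3/Bcl6 tumors.

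**Figure D4:**
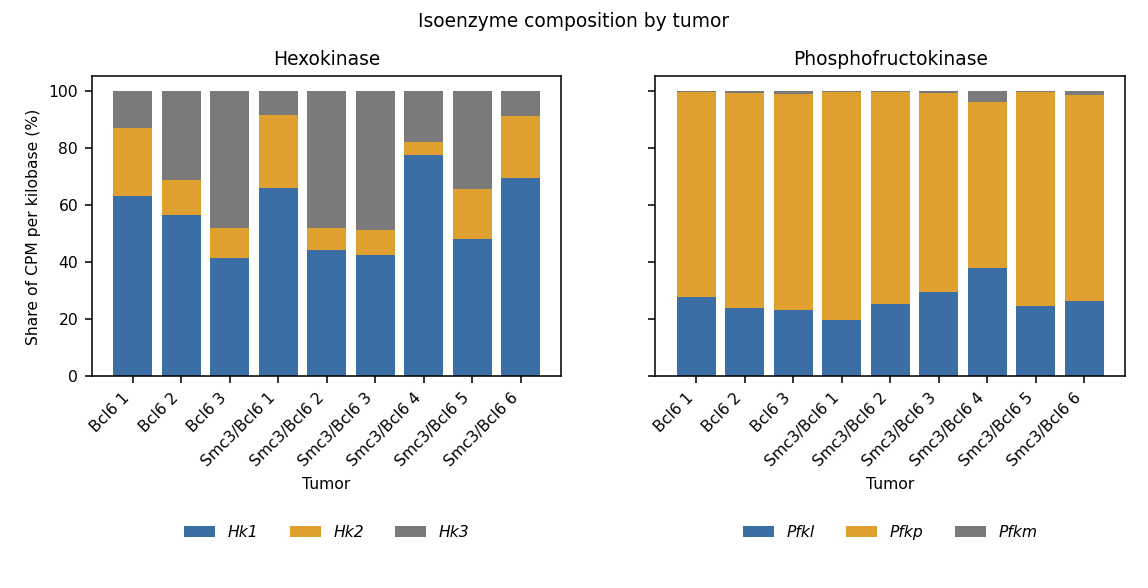
Stacked bars give the share (vertical axis, percent of CPM per kilobase of the principal transcript) of each hexokinase (left) and phosphofructokinase (right) isoenzyme in the 9 tumors. Hk3 ranges from 8.57% to 48.7% of hexokinase, and Pfkp is the largest phosphofructokinase share in every tumor, lowest at 58.0% in Smc3/Bcl6 tumor 4.

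The hexokinase and lactate dehydrogenase forms outside the 10 moved with markers of other cells. Hk3 ranged from 51.6 to 163 CPM in Bcl6 tumors 2 and 3 and in Smc3/Bcl6 tumors 2, 3 and 5, and between 10.8 and 20.7 in the other 4. Ldhb, the heart-type subunit, had 6.03 to 17.1 CPM in these 5 tumors and 0.208 to 1.47 in the other 4, and the lactate exporter Slc16a3 had 30.7 to 59.9 against 7.01 to 10.2. The 5 were also the tumors with the highest sums of the 7 T-cell markers (910 to 2330 CPM, against 82.8 to 281) and of the 7 macrophage markers (3299 to 7715 CPM, against 252 to 2200). The macrophage genes were not uniform in this. Lyz2 showed the separation (2499 to 5897 CPM, against 96.3 to 235), whereas Csf1r, Emr1 and Mrc1 were highest in Smc3/Bcl6 tumor 4, one of the other 4, at 720, 157 and 242 CPM. Of the 10 enzymes, only Aldoa showed the same separation, with 843 to 2819 CPM in the 5 tumors and 484 to 707 in the other 4. This grouping was noticed in the data and the part of T cells and macrophages was not tested. The share of all genes tested that separated in this way was not counted, so 1 of the 10 has no background to be read against.

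The enzymes of the steps between the 10 were highest in tumor 2 and lowest in tumor 4, as were 6 of the 10. Triose phosphate isomerase Tpi1 had 330.5, 379 and 316 CPM in Bcl6 tumors, and in Smc3/Bcl6 tumors its lowest value was 111 in tumor 4 and its highest 1423 in tumor 2. Pgam1 and Eno1, the mutase and the enolase, were likewise lowest in tumor 4 (2.6 and 132 CPM) and highest in tumor 2 (27.8 and 625 CPM), with 41.5% and 72.2% of their windows shared with other genes. Bpgm, the mutase of red cells, went the other way. It had 471 CPM in Smc3/Bcl6 tumor 4 and 144 in tumor 6, against 17.4 to 65.6 in the other 7 tumors, and was named after its values had been seen. The sums of erythroid markers in tumors 4 and 6 were 12511 and 4006 CPM, beside 4659 in tumor 2, and their part in the Bpgm levels was not tested.

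In edgeR with all 9 tumors, 0 of the 53 tested genes of the surrounding pathway were called. Of 19 isoenzymes and other glycolysis steps 11 passed the filter, and 0 were called at the thresholds of the study in either direction, with 9 fold changes positive and 2 negative. The same count of 0 held for the 8 tested of 9 glucose and lactate transporters, the 9 tested of 12 regulators of glycolytic flux, the 5 pyruvate dehydrogenase genes, the 7 pentose phosphate genes and the 13 tested of 14 transcriptional regulators and hypoxia genes. The 6 alternative fits examined for these lists called 1 to 3 of the 53. Without tumor 2 it was 1 (1.89%, when 3.82% of all genes were called), namely Egln3, an oxygen-dependent prolyl hydroxylase that is itself induced by hypoxia, with a log2 fold change of -1.67 and a standard error of 0.75. Egln3 was also the 1 gene called with a length and GC offset (2.29% of all genes) and without tumors 2 and 4 (3.12%). Its levels were low, from 2.75 to 13.5 CPM in Bcl6 tumors and from 0.666 to 6.03 in Smc3/Bcl6 tumors. The genotypes overlapped for this gene with and without tumor 2. DESeq2 called Bpgm higher (1.89% of the 53, against 3.15% of all genes). Limma with quality weights called Eno3, Egln3 and Vegfa lower (5.66%, against 11.7% of all genes called in either direction). The replicate block called Pgam2 higher and Vegfa lower (3.77%, against 2.24%), the last at -2.02 with a standard error of 1.00. Vegfa had 1.15 to 6.33 CPM in Bcl6 tumors and 0 to 13.3 in Smc3/Bcl6 tumors. The glucose importer Slc2a1 had 51.0 to 64.0 CPM in Bcl6 tumors and 37.3 to 91.7 in Smc3/Bcl6 tumors, and the lactate carrier Slc16a1 66.6 to 115 and 45.2 to 102. All 5 pyruvate dehydrogenase genes had negative fold changes in edgeR with and without tumor 2 (median -0.15 and -0.26), but 4 of the 5 with DESeq2, limma or the length and GC offset and 3 of the 5 with the replicate block (median -0.08).

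Pdk1, a kinase that switches off pyruvate dehydrogenase, was the only gene of these 6 lists whose genotypes did not overlap, and it was named after its values had been seen. It had 78.1, 87.9 and 95.1 CPM in Bcl6 tumors and 120, 104, 107, 108, 104 and 112 CPM in Smc3/Bcl6 tumors 1 to 6. Every Smc3/Bcl6 tumor was thus above every Bcl6 tumor, tumors 2 and 4 included, as 0.484% of all genes were separated in either direction. The log2 fold change of Pdk1 was 0.33 with a standard error of 0.18, under the fold threshold of the study (unadjusted p = 0.108, Benjamini-Hochberg adjusted p = 1, edgeR). Without tumor 2 it was 0.35 with a standard error of 0.13 and an adjusted p of 0.985 in the same test.

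Proliferation was set beside the enzymes through Mki67, which marks cycling cells. In Bcl6 tumors 1 to 3 Mki67 stood at 358, 242 and 226 CPM, and at 278, 53.5, 159, 84.9, 312 and 165 CPM in Smc3/Bcl6 tumors 1 to 6, lowest in tumors 2 and 4 of the latter. Its log2 fold change was -0.65 with a standard error of 0.50. Over the 9 tumors the Pearson correlation with log2 CPM of Mki67 was positive for 4 enzymes and negative for 6. It ran from -0.43 for Aldoa to 0.79 for Hk2, and the median Spearman's rho was 0. For Hk2, r was 0.79 with an exact permutation p of 0.0256 and a Benjamini-Hochberg adjusted p of 0.256 over the 10 enzymes, and Spearman's rho was 0.32 (exact permutation p = 0.41). No enzyme passed an adjusted p of 0.05 over the 10 relations computed, and 1, Hk2, had an unadjusted p below 0.05.

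The signs of these relations depended on 2 tumors. Without Smc3/Bcl6 tumor 2, r was positive for 9 of the 10 with a median of 0.70, and Pgk1 had the highest value (r 0.88, rho 0.79, exact permutation p = 0.00729, adjusted 0.0729). Hk1 was the exception at -0.40. Without Smc3/Bcl6 tumor 4 instead, the result was the opposite. There r was negative for 8 of the 10 with a median of -0.75, and 0 had an adjusted p below 0.05. Without the 2 tumors farthest from the median of Mki67, which were Smc3/Bcl6 tumors 2 and 4, r ran from -0.82 for Hk1 to 0.65 for Pgk1 with a median of 0.11, and the relation of Hk2 turned to -0.46. The positive relation of Hk2 thus rested on tumors 2 and 4, the 2 with low Hk2 and low Mki67. Within the 6 Smc3/Bcl6 tumors r ran from -0.48 to 0.84 and 0 of the 10 had an adjusted p below 0.05, and the 3 Bcl6 tumors were too few for a value.

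The answer changed when proliferation was measured by more genes. Tumor 2 was lowest for Mki67, a gene with a transcript of 10061 bases. The deviation of Mki67 in this tumor from the other 8 went from -1.97 to -0.84 after correction for length and GC content. The part of length in it was not tested. Tumor 2 was however highest for 11 of the 22 proliferation genes, and the mean log2 CPM of the 22 was 7.51 there, second to 7.63 in Bcl6 tumor 1. With this mean in place of Mki67, r was positive for 9 of the 10 enzymes over the 9 tumors, with a median of 0.72. Pfkl had r 0.85 and Spearman's rho 0.68 (exact permutation p = 0.0033 and 0.0503, the former 0.033 after Benjamini-Hochberg adjustment), and Pgk1 and Ldha had r 0.82 and 0.79 (adjusted p = 0.0527 for both by exact permutation). Hk1 was again negative, at -0.48. Pfkl was the only 1 called, and without tumor 2 its r was 0.82 with an adjusted exact permutation p of 0.0761. Tumor 4 had the lowest mean of the 22 genes, at 5.71. The relations to the list were not computed without tumor 4 or without tumors 2 and 4, so how far they rest on these tumors is not known. Between the genotypes, 2 of the 22 proliferation genes were lower in Smc3/Bcl6 tumors at the thresholds of the study, the mitotic kinase Bub1 at -1.04 ± 0.52 and topoisomerase Top2a at -0.96 ± 0.40 (log2 fold change ± standard error). This compares with 0.868% of genes called lower. Without tumor 2, 10 of the 22 were lower, when 1.39% of genes were. Without tumors 2 and 4 it was 5, when 3.12% of genes were called in either direction. Tumor 4 was the lowest for 17 of the 22, and the genes of the list are not replicates of each other. The direction of the list was not the same in the replicate block, which took replicates 1 to 3 only. Smc3/Bcl6 tumors 4 to 6, which it left out, had a mean log2 CPM of the 22 genes of 5.71, 6.44 and 6.32. The tumors it used had 6.74 to 7.63. The tumors changed together with the pairing, so the change cannot be credited to pairing. With all 9 tumors 3 of the 22 fold changes were positive (median -0.36), and with the replicate block 12 were (median 0.03), where Top2a and Mki67 were called lower (-0.95 and -1.03), Bub1 was not, and 1.9% of genes were called lower.

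**Figure D5:**
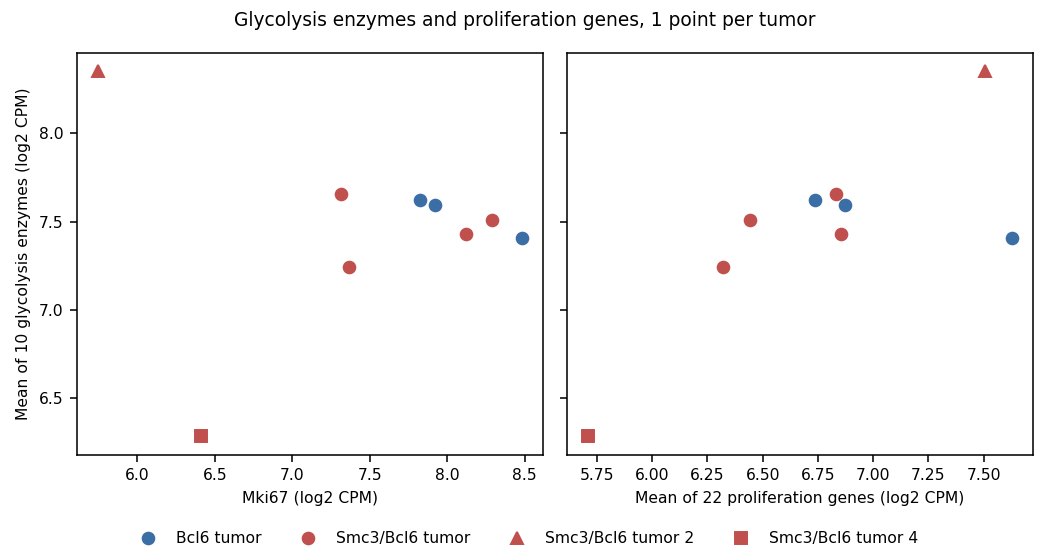
Each point is 1 tumor, with the mean log2 CPM of the 10 enzymes on the vertical axis and log2 CPM of Mki67 (left) or the mean of 22 proliferation genes (right) on the horizontal axis. Smc3/Bcl6 tumor 2, at 8.35 for the enzymes, is the leftmost point for Mki67 but lies at 7.51 on the right, and tumor 4 is low on each scale.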

How the data were processed

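RNA-seq counts of 9 lymphomas, 1 library per tumor, were analyzed. Reads had been aligned by the authors to mm10 with STAR inside nf-core/rnaseq, using Gencode transcripts, and the deposited values are raw counts per gene from featureCounts. Groups and replicate numbers came from the labels, which do not tie tumors to animals, so that p-values measure the spread between these samples. GENCODE M21 (GRCm38) matched 97.9% of the 41128 identifiers and gave positions and lengths.

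The genotype test was edgeR 4.0.16's quasi-likelihood fit under R 4.3.3, after TMM scaling and filterByExpr, and p-values were adjusted by Benjamini-Hochberg over 14057 genes. Log2 CPM used a prior count of 2, and single values were compared by exact permutation in Python 3.11.15 with scipy 1.17.1. The lists and the 10 genes were chosen with earlier results of these data known. Besides the 10, genes were named where they were Smc3 or Mki67, passed the thresholds in a list, shared a step or transport with the 10, or were among the 5 that followed their mean most closely, and any other is marked where it stands. Counts are whole reads, so that low levels such as those of Pgk1 carry more counting error than those of Ldha.

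Alternatives were DESeq2 1.42.0, limma 3.58.1 with quality weights, other normalizations and filters, the tissue label, a length and GC offset (lowess span 0.3), a replicate block and each tumor left out. Deviations of same-numbered tumors were correlated at 0.44, 0.11 and 0.16 in the 3 pairs. Tumors of different number were not compared in this way, so these values do not show that the numbers mark pairs. The highest value was that of replicate 1, where both tumors are labelled mesenteric. The numbers, which only the labels give, served as pairs in the replicate block and in the differences by number, and not in the main test. The fits were tested on simulated data.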

Additional observations from a re-analysis of the deposited data

How the results depend on the processing

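With 3 and 6 tumors, intervals of the fold changes were wide, and 0 of the 10 genes were called at an adjusted p below 0.05 under any of the 20 alternatives to the genotype test. At the thresholds of the study the count was 0 except for limma with quality weights, which called 1. Depth limited Pgk1 most, at 41 counts in 1 tumor. No cause of the changes in sign below was tested.

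Directions changed as follows (log2 fold changes). Pkm was 0.0201 with DESeq2 and 0.0201 with RLE normalization. Limma with quality weights gave -0.065 for Gpi1, -0.26 for Aldoa, -0.15 for Gapdh, -0.48 for Pgk1 and -0.60 for Ldha. The replicate block over replicates 1 to 3 gave 0.15 for Pfkl, 0.17 for Pfkp and 0.22 for Pkm, and 0.30, 0.65 and 0.29 with a length and GC offset added, and neither fit changed a call among the 10. The same 6 tumors unpaired gave 0.15, 0.17 and 0.32, and the length and GC offset over 9 tumors 0.0022, 0.26 and 0.049. Without Smc3/Bcl6 tumors 2 and 4, chosen after seeing the data as were the unpaired fit and the proliferation list without tumor 2, the values were 0.0059 for Hk1, 0.19 for Hk2, -0.036 for Aldoa, -0.19 for Pgk1 and -0.39 for Ldha. The difference in the mean over the 10 enzymes, -0.13 with all 9 tumors, was 0.0947 without Smc3/Bcl6 tumor 4 and 0.0169 as a median over the enzymes. Within pairs of replicates 1 to 3, which leaves out Smc3/Bcl6 tumors 4 to 6, it was 0.27.

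Leaving out each tumor in turn gave ranges of -0.49 to 0.074 for Hk1, -0.13 to 0.47 for Gpi1, -0.19 to 0.010 for Pfkl, -0.30 to 0.011 for Pfkp, -0.16 to 0.51 for Aldoa, -0.16 to 0.72 for Gapdh, -0.42 to 0.45 for Pgk1, -0.34 to 0.11 for Pkm and -0.56 to 0.37 for Ldha.

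For the correlation with Mki67, these ranges were -0.40 to 0.54 for Hk1, -0.82 to 0.83 for Gpi1, -0.36 to 0.70 for Pfkl, -0.12 to 0.82 for Pfkp, -0.78 to 0.58 for Aldoa, -0.85 to 0.76 for Gapdh, -0.73 to 0.88 for Pgk1, -0.85 to 0.60 for Pkm and -0.81 to 0.63 for Ldha. With the proliferation list in place of Mki67 the number called was 1, and r was -0.48 for Hk1, 0.69 for Gpi1, 0.59 for Aldoa, 0.71 for Gapdh, 0.82 for Pgk1, 0.75 for Pkm and 0.79 for Ldha. That list without tumor 2 gave -0.25, 0.69, 0.40, 0.69, 0.79, 0.67 and 0.79 for the same genes. Correction for length and GC gave -0.091 for Hk1, 0.0063 for Aldoa, 0.39 for Pgk1, 0.10 for Pkm and 0.053 for Ldha. Without the 2 tumors farthest from the median of Mki67, r was -0.82 for Hk1, -0.46 for Hk2, 0.44 for Gpi1, 0.12 for Aldoa, 0.10 for Gapdh and 0.65 for Pgk1.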
